A study of Mus musculus with 2 samples.

Results

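H/ACA box small nucleolar RNAs (snoRNAs) and small Cajal body RNAs (scaRNAs) were examined in differentiating mouse erythroleukemia cells. The set was every gene row whose symbol begins with Snora or Scarna and a number, matched by Ensembl identifier to the GENCODE M21 annotation on GRCm38. It held 50 of the 69691 rows in each gene table, 41 Snora and 9 Scarna rows. The annotation names 51 such genes, and a second identifier for Snora16a had no row. All libraries came from 1 group, MEL cells kept in 2% dimethyl sulfoxide (DMSO) for 5 days, with 2 libraries of total RNA named replicate 2 and replicate 1. MEL is an immortalized leukemia line whose cells turn on hemoglobin genes in DMSO. The labels number them as biological replicates, yet both point to a single biosample record, so differences between them may be technical in part. No library of untreated cells was used here, so nothing below compares treated with untreated cells.

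Most H/ACA RNAs direct pseudouridylation, the conversion of a chosen uridine in ribosomal or spliceosomal RNA to pseudouridine. Each typical RNA folds into a pair of hairpins joined by a single-stranded hinge that carries the H box, followed by a short tail with the ACA box. Base pairing in an internal loop of a hairpin picks the target, and the protein dyskerin, bound with NOP10, NHP2 and GAR1, performs the reaction. Mammalian H/ACA snoRNAs are mostly cut out of the introns of host genes, many of which encode ribosomal proteins or translation factors. scaRNAs reside in Cajal bodies and guide changes in spliceosomal RNAs. They can be of the H/ACA type, of the C/D type that guides ribose methylation, or of both types at once.

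The sequences of the RNAs on which the results turn are given 5′ to 3′ from the GENCODE M21 transcripts on GRCm38. Capitals mark the ACA box in H/ACA RNAs, the H box where the search described below found it, and the TGATGA and CTGA motifs of C/D RNAs. Among the printed RNAs that search found no H box in Scarna13, Scarna6, Snora52 and Snora61, which does not show that they lack it. The first group shows abundant members of each kind: Snora73b at chr4:132352322-132352526 (minus strand), Snora73a at chr4:132352775-132352979 (minus), Scarna13 at chr12:105031075-105031349 (minus) and Scarna6 at chr1:87784556-87784820 (plus).
Snora73b: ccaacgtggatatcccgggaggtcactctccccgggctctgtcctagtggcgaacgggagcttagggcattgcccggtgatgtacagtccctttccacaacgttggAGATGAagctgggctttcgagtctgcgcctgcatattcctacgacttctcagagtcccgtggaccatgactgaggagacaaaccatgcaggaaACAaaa
Snora73a: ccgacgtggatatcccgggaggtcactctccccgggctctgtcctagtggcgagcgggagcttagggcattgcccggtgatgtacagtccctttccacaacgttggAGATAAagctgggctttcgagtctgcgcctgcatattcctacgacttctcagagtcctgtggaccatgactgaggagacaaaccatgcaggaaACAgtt
Scarna13: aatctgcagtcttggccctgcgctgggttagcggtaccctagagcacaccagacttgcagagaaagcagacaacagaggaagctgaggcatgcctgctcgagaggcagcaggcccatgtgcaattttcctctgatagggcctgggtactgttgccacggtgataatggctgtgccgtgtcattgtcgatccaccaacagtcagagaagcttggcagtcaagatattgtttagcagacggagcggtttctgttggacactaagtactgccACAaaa
Scarna6: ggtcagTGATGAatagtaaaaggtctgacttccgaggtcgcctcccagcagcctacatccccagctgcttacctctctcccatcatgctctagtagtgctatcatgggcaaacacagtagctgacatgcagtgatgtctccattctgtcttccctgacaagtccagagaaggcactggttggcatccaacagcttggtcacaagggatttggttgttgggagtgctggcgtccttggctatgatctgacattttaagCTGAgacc
Snora73b and Snora73a, the U17 RNAs, act in the cleavage of the ribosomal RNA precursor rather than as pseudouridylation guides. Their sequences were 96.6% identical, with 7 mismatches over 205 aligned bases, and 1 of these mismatches fell in the H box, AGATGA in Snora73b and AGATAA in Snora73a. Scarna6 has TGATGA near its start and CTGA near its end, the letters of a C/D RNA. Scarna2, too long to print here, lacks an ACA near its end and closes with CTGA. It is a C/D type RNA that the symbol rule brings in with the others.

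The second group shows RNAs of the usual H/ACA length whose counts were high while their deposited length-corrected values were very high or 0. They are Snora52 at chr7:141448803-141448939 (plus strand), Snora64 at chr17:24720772-24720905 (plus), Snora61 at chr4:132310240-132310369 (plus) and Snora57 at chr19:8888538-8888685 (minus).
Snora52: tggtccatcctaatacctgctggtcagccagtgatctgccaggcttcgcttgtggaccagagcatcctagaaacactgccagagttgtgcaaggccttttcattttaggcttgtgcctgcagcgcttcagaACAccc
Snora64: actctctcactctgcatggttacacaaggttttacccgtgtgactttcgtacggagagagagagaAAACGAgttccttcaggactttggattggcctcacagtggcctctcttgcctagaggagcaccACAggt
Snora61: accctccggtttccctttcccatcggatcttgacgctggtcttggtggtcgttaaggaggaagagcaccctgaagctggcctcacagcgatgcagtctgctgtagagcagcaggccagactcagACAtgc
Snora57: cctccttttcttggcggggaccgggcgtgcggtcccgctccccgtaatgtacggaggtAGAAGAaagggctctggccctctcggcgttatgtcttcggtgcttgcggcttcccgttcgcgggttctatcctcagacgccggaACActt
Snora52 lies in an intron of Rplp2, Snora64 in an intron of Rps2, and Snora61 within the span of the noncoding gene Snhg12, where it also overlaps annotated Snhg12 exons. Retained-intron transcripts of Rplp2 and Rps2 are annotated across the first pair. Snora57 had no host on its strand and lies opposite Lbhd1.

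An ACA trinucleotide 2 to 4 bases from the 3′ end was found in 43 of 50 members (86.0%), in 39 of 41 Snora and 4 of 9 Scarna RNAs. The same letters stood there in 2.3% of 87 Snord transcripts, the C/D snoRNAs, and in 8.0% of 20148 other transcripts of 70 to 414 bases. These others were all transcripts outside the symbol rule, so they include Snord transcripts and further snoRNA-type RNAs. Among gene rows of that type outside the rule, 626 carry the same ending. In 36 members the box stood exactly 3 bases from the end, the canonical place. The Snora RNAs without it were Snora44, ending in TATATAT, and Snora81, ending in AATAAGT. Boxes were searched on the RNA strand alone.

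The H box was searched as ANANNA lying wholly unpaired between stems of the minimum free energy structure. Among members of 110 to 150 bases it was found in 53.8% of 39, against 8.8% of 1000 other transcripts of that length. Those 1000 were drawn from the same set of others, with its snoRNA-type RNAs. In 21 members under 150 bases with both boxes, 56 to 78 bases lay between them, with a median of 60. The window of a predicted structure decides this count, and RNAs without a match may hold an H box that the predicted fold pairs. The C box letters TGATGA within the first 21 bases occurred in 4 Scarna RNAs and in no Snora RNA, against 73.6% of Snord transcripts and 2.23% of the other transcripts. Those 4 were Scarna10 and Scarna6, known as RNAs that carry both box types, and Scarna9 and Scarna17.

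Several members contain an annotated microRNA, which is shown because such overlap lets a short read belong to either RNA. Capitals mark the seed, bases 2 to 8, and the mature sequences are from RefSeq on GRCm38.p6. miR-3069 lies in Scarna13, miR-1843b in Scarna3a, miR-1843a in Scarna3b and miR-1291 at the 5′ end of Snora34.
mmu-miR-3069-3p: uUGGACACuaaguacugccaca
mmu-miR-3069-5p: uUGGCAGUcaagauauuguuuagc
mmu-miR-1843b-5p: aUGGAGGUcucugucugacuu
mmu-miR-1843a-5p: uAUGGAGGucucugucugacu
mmu-miR-1291: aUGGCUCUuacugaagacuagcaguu
The 5p arms of miR-1843b and miR-1843a differ in where they begin, by 1 base, so their seeds are not the same. The host RNAs Scarna3a and Scarna3b were 85.7% identical. They are shown here with Snora34, with boxes in capitals, from chr1:159340283-159340422 (plus strand), chr12:80391613-80391751 (minus) and chr15:98519716-98519853 (minus).
Scarna3a: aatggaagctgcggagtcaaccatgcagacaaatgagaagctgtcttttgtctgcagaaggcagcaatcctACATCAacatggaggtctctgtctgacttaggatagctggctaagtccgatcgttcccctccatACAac
Scarna3b: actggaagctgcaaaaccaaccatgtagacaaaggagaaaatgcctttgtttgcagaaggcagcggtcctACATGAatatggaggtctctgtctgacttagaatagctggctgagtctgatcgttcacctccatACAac
Snora34: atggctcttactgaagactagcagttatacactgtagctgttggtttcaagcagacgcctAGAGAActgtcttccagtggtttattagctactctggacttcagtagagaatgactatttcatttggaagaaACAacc
miR-664 in Snora36b and miR-3084 in Snora19 complete the 6 members with a mature sequence in RefSeq, and M21 marks a microRNA gene in 8 members. These microRNA genes have no rows of their own in the gene tables, and libraries labelled with a size range of 300 to 350 bases do not measure mature microRNAs.

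The libraries held 90856320 estimated counts in replicate 2 and 65109488 in replicate 1. H/ACA rows took 1.040% of the replicate 2 counts, with a 95% Wilson interval of 1.038 to 1.042. They took 1.043% of the replicate 1 counts, with an interval of 1.040 to 1.045, for a mean of 1.04% ± 0.00194 (SD, n = 2). These intervals, like all those below, cover counting error only. The marker check fitted the label: 8 of 8 erythroid marker genes were at 1 TPM (transcripts per 1000000) or more in both libraries, and 0 of 10 markers of other blood, fibroblast and epithelial cells were, with a highest value of 0.28 TPM. The erythroid markers were not equal between the libraries. Their summed level was 13666 TPM in replicate 2 and 6544 TPM in replicate 1, and on TMM-scaled counts 5 of the 8 were at least 2-fold higher in replicate 2.

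Of the 50 members, 39 had 10 or more counts in both libraries, 32 Snora and 7 Scarna. At 100 or more counts there were 31, and at 1000 or more there were 20. By contrast, 5 of 97 Snord rows (5.15%) had 10 or more counts in both libraries, against 78% of the H/ACA rows. The Snord rows are shorter, with a median of 84 bases against 133.5 bases for H/ACA rows. The part of length in this difference was not tested.

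Counts were concentrated in the U17 pair. Snora73b had 485883 counts in replicate 2 and 354103 in replicate 1, which is 5393 ± 64.2 counts per 1000000 (CPM; SD, n = 2). Snora73a had 297699 counts in replicate 2 and 192933 in replicate 1, or 3120 ± 222 CPM. Together they made up 82.9% of all H/ACA counts in replicate 2 and 80.6% in replicate 1. Although 96.6% alike, they were separated by the quantification with a posterior standard deviation of at most 0.00182% of the Snora73b count and 0.00397% of the Snora73a count. Snora73b exceeded Snora73a by 1.63-fold in replicate 2 and by 1.84-fold in replicate 1. The genes stand 248 bases apart inside the same hosts, Rcc1 and the nested noncoding gene Snhg3.

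scaRNAs formed the next tier. Scarna13, an H/ACA scaRNA also called U93 that lies within Snhg10, had 39037 counts in replicate 2 and 22990 in replicate 1 (391 ± 54.1 CPM). Scarna2, the C/D scaRNA with no host gene, had 24699 counts in replicate 2 and 26587 in replicate 1 (340 ± 96.5 CPM). Scarna10, known as U85 and the prototype of the composite box type, lies in an intron of the condensin gene Ncapd2 and had 27435 counts in replicate 2 and 14392 in replicate 1 (262 ± 57.2 CPM). Scarna13 and Scarna10 were thus higher in replicate 2 by CPM, and Scarna2 was lower. Another annotated row, Gm28967, overlaps Scarna10 over 281 bases on the same strand and held 3301 counts in replicate 2 and 2951 in replicate 1, so part of the Scarna10 total depends on how reads were divided.

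Snora74a, or U19, had 13127 counts in replicate 2 and 10912 in replicate 1 (156 ± 16.3 CPM). Scarna6, a composite RNA in Atg16l1, had 9814 counts in replicate 2 and 5679 in replicate 1 (97.6 ± 14.7 CPM). The remaining scaRNAs were far lower. Scarna3a had 450 counts in replicate 2 and 444 in replicate 1, and its relative Scarna3b had 82 in replicate 2 and 50 in replicate 1. Scarna8 had 48 in replicate 2 and 47 in replicate 1. Scarna9 and Scarna17, the shortest members at 70 and 79 bases, had no counts in either library.

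**Figure D1:**
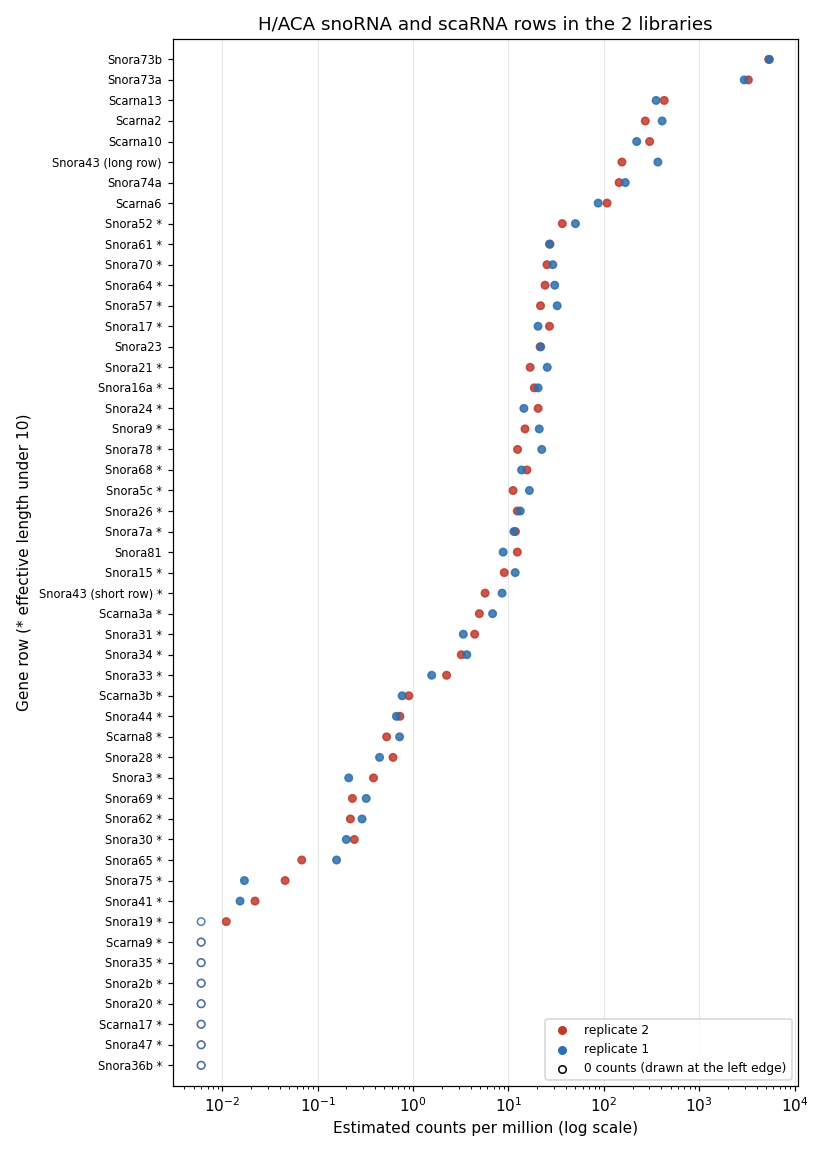
Estimated counts per 1000000 (CPM) of the 50 H/ACA snoRNA and scaRNA rows on a log axis, 1 line per row, ordered by mean count, with replicate 2 in red and replicate 1 in blue. Snora73b and Snora73a stand above all others at 5393 and 3120 CPM on average, and 7 rows at the bottom have 0 counts in both libraries.

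Snora43 needed separate treatment because its symbol belongs to a pair of overlapping rows. The short row of 127 bases had 517 counts in replicate 2 and 558 in replicate 1. The other row is listed with a length of 2314 bases although M21 gives the gene 139 bases. Its counts, 14055 in replicate 2 and 23990 in replicate 1, came almost wholly from a transcript of 2366 bases that is not in M21. This long row is kept among the 50 but its counts are not those of a snoRNA, and values per length below leave it out.

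Length divided the members sharply. All 9 rows of 178 to 414 bases had 10 or more counts in both libraries. They held 95.3% of the H/ACA counts in replicate 2 and 92.7% in replicate 1, with a median of 272 CPM in replicate 2 and 221 CPM in replicate 1. The 40 rows of at most 149 bases held 3.17% in replicate 2 and 3.72% in replicate 1, with medians of 2.72 CPM in replicate 2 and 2.47 CPM in replicate 1. The highest row of the shorter class, Snora52, reached 43.5 ± 9.68 CPM, above Snora23 and Snora81 alone among the longer class.

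Spearman's rank correlation between length and CPM over rows above 0 was 0.56 in replicate 2 (n = 42) and 0.57 in replicate 1 (n = 41). Within the shorter class it was 0.19 in replicate 2 (n = 33) and 0.23 in replicate 1 (n = 32). All points of a library share its fragment selection. The size range in the labels, 300 to 350 bases, lies above the length of all but 2 of the short-row RNAs. The effective lengths given below rest on shorter fragments than that. The part of the fragment selection in these levels was not tested.

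**Figure D2:**
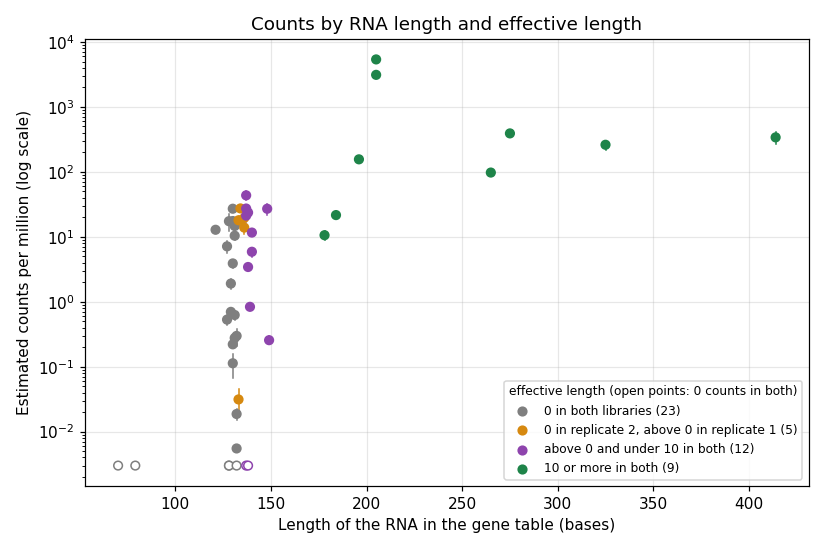
Estimated counts per 1000000 (CPM) (log axis, mean of the libraries, with a line joining the library values) plotted against the length in the gene table for 49 rows, without the long Snora43 row; colour gives the effective length. Rows of 178 bases or more lie between 10.6 and 5393 CPM, while rows of at most 149 bases spread from 0 to 43.5 CPM.

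The same length limits the deposited TPM values. The effective length is the number of positions at which a fragment could start, and it was under 10 for 40 of 50 members. It was 0 for 28 members in replicate 2, up to 136 bases long, and for 23 in replicate 1, up to 132 bases long. A row with an effective length of 0 is listed at 0 TPM whatever its count. Among members with 10 or more counts in both libraries, 15 were listed at 0 TPM in both, and 20 members in all were at 1 TPM or more in both.

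Snora61, a guide in Snhg12, had 2474 counts in replicate 2 and 1753 in replicate 1 and was listed at 0 TPM in both. Snora64, in Rps2, was listed at 0 TPM in replicate 2 and at 7036 TPM in replicate 1, with effective lengths of 0 in replicate 2 and 1.17 in replicate 1. Its counts were 2197 in replicate 2 and 1988 in replicate 1. Snora9, Snora16a and Snora5c showed the same break, at 0 TPM in replicate 2 and between 3194 and 5294 TPM in replicate 1. Their counts were 1355, 1694 and 1016 in replicate 2, against 1369, 1332 and 1078 in replicate 1. Those 4 RNAs are 133 to 136 bases long, where the effective length of replicate 2 had reached 0 and that of replicate 1 had not.

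Just above that limit TPM was high relative to the counts. Snora52, with an effective length of 1.04 in replicate 2 and 1.53 in replicate 1, was listed at 8017 TPM in replicate 2 and 8880 TPM in replicate 1 (rank 3 among members by mean TPM). Its count was 3333 in replicate 2 and 3279 in replicate 1. Scarna13, with 39037 counts in replicate 2 and 22990 in replicate 1, was listed at 852 TPM in replicate 2 and 788 TPM in replicate 1. Members with an effective length above 0 and under 10 held 37.7% of H/ACA TPM in replicate 2 and 49.4% in replicate 1, but 1.43% of H/ACA counts in replicate 2 and 2.58% in replicate 1. The H/ACA share of all TPM was 7.56% in replicate 2 and 9.42% in replicate 1, while the shares of counts were 1.040% in replicate 2 and 1.043% in replicate 1. Members are therefore compared below by CPM divided by the listed length in kilobases (RPKM). RPKM does not correct for effective length, so the order of members of unlike length is limited by fragment selection as well. Its part in the ranks and host ratios below was not tested.

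By RPKM, Snora73b led with 26087 in replicate 2 and 26530 in replicate 1, followed by Snora73a with 15983 in replicate 2 and 14455 in replicate 1. Scarna13 came next with 1562 in replicate 2 and 1284 in replicate 1. These 3 were separated from each other and from the rest in both libraries. Scarna2 (821 ± 233), Scarna10 (805 ± 176) and Snora74a (796 ± 83.4) could not be put in order, since the library with the higher value differed between them (SD, n = 2). Scarna6 (368 ± 55.5) and Snora52 (318 ± 70.6) overlapped as well, and both lay below the 3 before them.

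From rank 9 to 15 came Snora61 (208 ± 1.64 RPKM), Snora64 (204 ± 33.5), Snora70 (199 ± 19.9), Snora57 (183 ± 51.2), Snora17 (171 ± 33.2), Snora21 (155 ± 44.4) and Snora16a (144 ± 9.43), none separated from its neighbour by more than the spread. Snora17 is listed at 138 bases, while M21 gives 132. Snora64, Snora70 and Snora21 lie in the ribosomal protein genes Rps2, Rpl10 and Rpl23. Over the 38 members of ordinary length with 10 or more counts in both libraries, 9 of 37 neighbouring pairs did not overlap between libraries. Mean RPKM spanned 15482-fold over all of them and 187-fold over those under 150 bases, down to 1.70 ± 0.231 for Snora30. The library values tracked each other, with a Pearson correlation of log10 CPM of 0.993 (n = 38 rows of the same 2 libraries).

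Several members share a host gene. In the noncoding gene Snhg12, Snora61 had 209 RPKM in replicate 2 and 207 in replicate 1, and Snora16a had 137 in replicate 2 and 150 in replicate 1. The third, Snora44, had 5.65 in replicate 2 and 5.19 in replicate 1, so Snora61 stood 38.5 ± 2.02 times above it (SD, n = 2). Snora44 also lacks an ACA near its annotated end. In Kansl2, which encodes a histone acetyltransferase subunit, Snora34 had 291 counts in replicate 2 and 238 in replicate 1, while Snora2b, 69.3% identical to it, had 0 in both. Both of these differences were larger than the spread between libraries, as was the 1.45 ± 0.107-fold difference of Snora61 over Snora16a.

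Host genes could be read for 29 members with 10 or more counts on both sides, in 26 hosts. A host is the longest annotated gene that spans the member on the same strand, and host RPKM uses its listed gene length. Neither value is corrected for effective length, which was under 10 for most of these members. Of these members 9 were above their host in both libraries, 19 were below in both and Scarna3a was on either side. Among members with a host and 10 or more counts, this tally leaves out Scarna13, Snora24, Snora26 and Snora74a, whose hosts had no row, and Snora78. Snora78 had 1131 counts in replicate 2 and 1455 in replicate 1, while its host Snhg9 had 6 in replicate 2 and 13 in replicate 1. All of those left out but Snora74a lie in genes that M21 types as noncoding. The median log2 ratio of member to host was -1.93 on this scale and -0.34 with 100 or more counts on both sides, and on TPM its sign turned, to 4.53. The U17 RNAs exceeded Rcc1, a chromatin-bound exchange factor, by 699 ± 134-fold for Snora73b and 408 ± 111-fold for Snora73a (SD, n = 2). Against the nested Snhg3 the Snora73b ratio was 816-fold, 852 in replicate 2 and 781 in replicate 1. Scarna6 exceeded Atg16l1 by 22.4 ± 4.98-fold and Scarna10 exceeded Ncapd2 by 7.59 ± 0.520-fold.

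The remaining members above their host in both libraries were Snora61 (5.11 ± 1.83-fold) and Snora16a (3.48 ± 1.00-fold) in Snhg12, Snora9 in Snhg15 (4.47 ± 0.438-fold), Snora23 in the importin gene Ipo7 (2.55 ± 0.103-fold) and Snora5c in Tbrg4 (1.55 ± 0.140-fold). By host class the counts above in both libraries were 0 of 10 for ribosomal protein hosts, 6 of 14 for other protein-coding hosts and 3 of 5 for hosts that M21 types as noncoding. The last class held Snora61, Snora16a and Snora44, all in Snhg12, and Snora9 in Snhg15. It also held Snora15 in Cct6a, a chaperonin gene that M21 types as a processed transcript, so its place in this class rests on that label. Snora15 was below Cct6a in both libraries. The RNAs in ribosomal protein hosts were all at most 149 bases long, as were those in hosts typed as noncoding. The part of length in these counts was not tested. The median ribosomal protein host stood at 1033 RPKM in replicate 2 and 870 RPKM in replicate 1. The RNAs inside them had a median of 102 RPKM in replicate 2 and 93.2 RPKM in replicate 1. For RNAs in other protein-coding hosts, the median was 52.5 in replicate 2 and 49.1 in replicate 1, beside host medians of 45.0 in both libraries. For RNAs in hosts typed as noncoding, it was 112 in replicate 2 and 150 in replicate 1. Their host medians were 32.7 in replicate 2 and 54.3 in replicate 1.

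Members of ribosomal protein genes differed widely among themselves. Snora52 in Rplp2 reached 0.259 ± 0.0596 of its host, Snora70 in Rpl10 reached 0.193 ± 0.0393, and Snora21 in Rpl23 reached 0.185 ± 0.0778 (SD, n = 2). Snora33 in Rps12 reached 0.00702 ± 0.00127, and Snora3 in Rpl27a, Snora62 in Rpsa and Snora69 in Rpl39 stayed between 0.00418 and 0.00479. Over all 29 pairs, log2 RPKM of member and host had a Pearson correlation of -0.07 in replicate 2 and -0.04 in replicate 1, with 3 pairs sharing Snhg12 and 2 sharing Rcc1. Reads from retained introns or exons can be assigned to member or host, since 23 of 50 members overlap an exon of a longer annotated transcript, and 5 have a gene on the other strand.

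**Figure D3:**
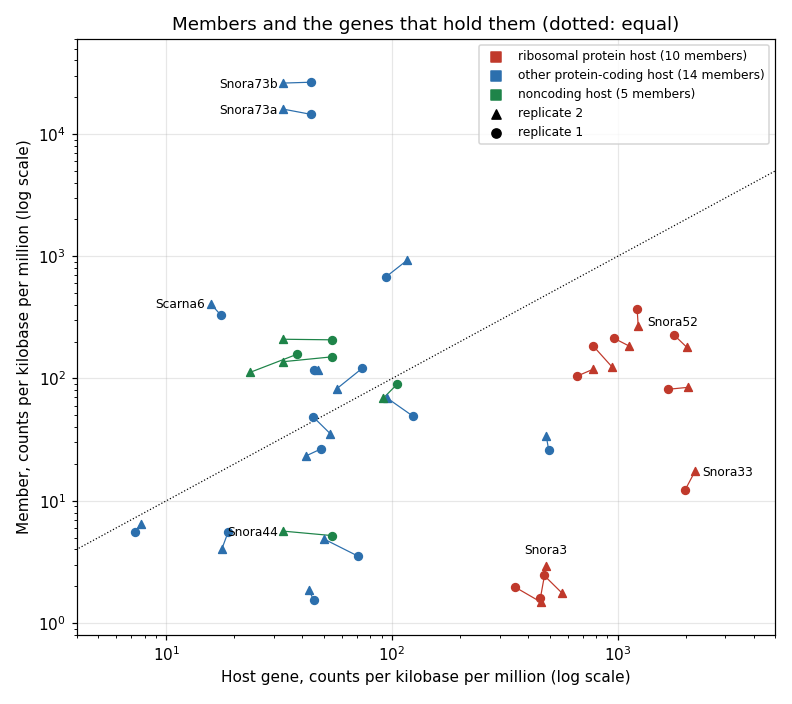
RPKM of 29 members against RPKM of their host genes on log axes, with triangles for replicate 2, circles for replicate 1 and a line joining them; the dotted line marks equal values. All 10 members in ribosomal protein genes (red) lie below the line, and Snora73b and Snora73a lie highest, 699 and 408 times above Rcc1 on average.

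Several members with few or no counts lie in hosts that were expressed. Snora20 had 0 counts in Tcp1, a chaperonin gene at 43.9 TPM in replicate 2 and 47.4 TPM in replicate 1. Scarna9 had 0 in Cep295 (9.97 TPM in replicate 2, 12.04 in replicate 1), and Snora36b had 0 in Rab3gap2 (3.76 TPM in replicate 2, 4.20 in replicate 1). Snora41 in the elongation factor gene Eef1b2 had 2 counts in replicate 2 and 1 in replicate 1, with its host at 156 TPM in replicate 2 and 160 TPM in replicate 1. Snora75, known as U23, had 4.14 counts in replicate 2 and 1.11 in replicate 1 within nucleolin (Ncl), and Snora19 had 1 in replicate 2 and 0 in replicate 1 within Eif3a. Snora65 in Rpl12 had 6.18 counts in replicate 2 and 10.3 in replicate 1.

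Hosts were also at 0 counts for a pair of undetected members: Snora35 in the serotonin receptor gene Htr2c, a brain-expressed snoRNA, and Snora47 in Zbed3. Scarna17 had 0 counts and no host. A count of 0 allows up to 3 counts, or 0.0330 CPM in replicate 2 and 0.0461 CPM in replicate 1. All 7 members at 0 and all 4 at low counts are at most 138 bases long, and those at 0 were not detected, which does not show them to be absent.

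The libraries were then compared member by member, as a description of how far levels hold between samples of 1 condition. In such bulk RNA, fewer cells of a kind and less RNA per cell cannot be told apart. Log2 ratios are replicate 2 over replicate 1, on counts scaled by trimmed means (TMM) with 0.5 added, and the exact binomial test covers counting error only, with Benjamini-Hochberg adjustment over 15275 genes. Of 40 members with 10 or more counts in either library, 0 were higher in replicate 2 at an adjusted p under 0.05 and 2-fold or more, where 2.42% of all genes were. Just 1 was lower, the long Snora43 row, where 4.08% of all genes were. At adjusted p alone, 10 members were higher and 14 lower, beside 31.5% and 30.5% of all genes, and 16 were neither. The other 10 members had too few counts to test. These p-values leave out the spread between libraries, which over all tested genes was a biological coefficient of variation of 0.216 (edgeR).

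Snora73b, the most abundant, had a log2 ratio of 0.01 (95% exact interval 0.00 to 0.01; adjusted p = 0.0586, binomial test). Snora61, Snora23 and Snora7a had intervals that include 0, at log2 ratios of 0.05, 0.01 and 0.08. Snora73a was higher in replicate 2 at 0.18 (0.17 to 0.18). Among the scaRNAs, Scarna10 was higher at 0.48 (0.45 to 0.51; adjusted p = 1.95e-235), Scarna6 at 0.34 (0.29 to 0.39; adjusted p = 5.59e-45) and Scarna13 at 0.31 (0.29 to 0.34; adjusted p = 4.06e-152). Scarna2 was lower at -0.56 (-0.58 to -0.53), and Scarna3a was lower at -0.43 (-0.62 to -0.24; adjusted p = 2.3e-05).

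Beside the long Snora43 row at -1.22 (-1.25 to -1.19), the members lowest in replicate 2 with 100 or more counts were Snora78 at -0.81 (adjusted p = 2.82e-45), Snora21 at -0.56 (adjusted p = 2.26e-27), the short Snora43 row at -0.56 (adjusted p = 7.78e-10) and Scarna2. The highest were Snora33 at 0.55 (adjusted p = 0.00293), Snora24 at 0.53 (adjusted p = 9.49e-20), Snora81 at 0.53 (adjusted p = 2.18e-12), Scarna10, and Snora17 at 0.43 (adjusted p = 5.29e-18). Snora78, in Snhg9, and Snora64 lie on opposite strands of the Rps2 locus. Snora64 had 1.94 times the counts of Snora78 in replicate 2 and 1.37 times in replicate 1.

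The median log2 ratio of the 40 tested members was -0.09, beside -0.01 over all genes, and the median size without sign was 0.42, beside 0.28 over all genes. By length the medians differed in sign, in classes chosen after the data were seen. The 9 members of 178 to 414 bases had a median of 0.18 with 7 above 0 (5 when scaled by total counts). Snora73b and Snora23, at 0.01, are among those 7. The 30 of at most 149 bases had a median of -0.17 with 12 above 0. Over all tested genes 49.5% were above 0. The effective lengths were shorter in replicate 2, for Snora73b 44.4 bases in replicate 2 against 51.1 in replicate 1. The part of fragment length in these ratios was not tested. The erythroid markers, which were higher in replicate 2 with a median log2 ratio of 1.24, also moved with the library, and their part was not tested.

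Over the 29 pairs of member and host, the Pearson correlation of their log2 ratios was -0.05, and the sign was the same in 12 of 29. Snora21 was lower in replicate 2 while its host Rpl23 had a log2 ratio of 0.34, and Snora81 was higher while Eif4a2 had a log2 ratio of -0.36. Scarna10 and its host Ncapd2 had log2 ratios of 0.48 and 0.44.

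**Figure D4:**
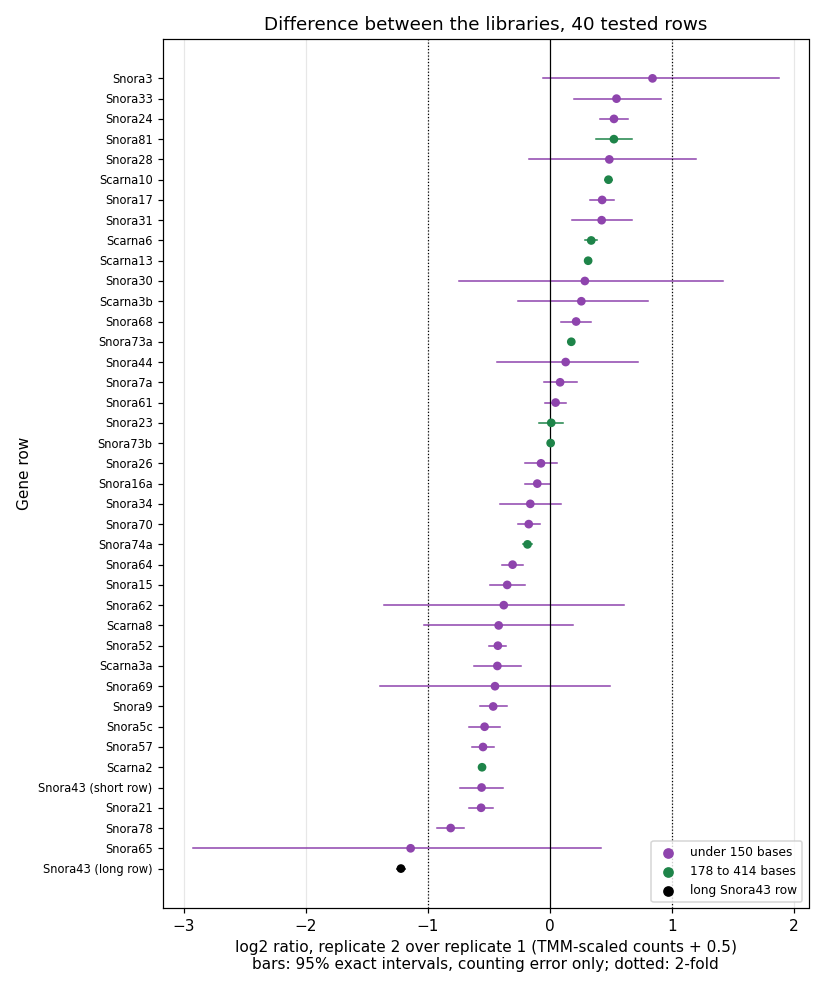
Log2 ratio of replicate 2 over replicate 1 for the 40 tested members, with 95% exact intervals from counting error; dotted lines mark 2-fold and colour marks length. The long Snora43 row, at -1.22, is the member whose interval lies beyond the 2-fold line. Members of 178 to 414 bases (green) lie right of 0 in 7 of 9 cases (5 of 9 when scaled by total counts), beside 49.5% of all tested genes.

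The 4 core proteins of the H/ACA particle were all detected, and their median level was 13.5 TPM for replicate 2 against 21.2 TPM for replicate 1. Dkc1, which encodes dyskerin, was at 8.47 TPM in replicate 2 and 14.9 TPM in replicate 1. Nop10 was at 18.6 TPM in replicate 2 and 27.6 in replicate 1, Nhp2 at 40.4 in replicate 2 and 68.2 in replicate 1, and Gar1 at 4.46 in replicate 2 and 9.21 in replicate 1. Each was lower in replicate 2 in both TPM and scaled counts. On scaled counts, log2 ratios ran from -0.29 for Dkc1 to -0.69 for Gar1 (adjusted p = 7.03e-31 and 2.83e-23, binomial test), and 0 of 4 passed 2-fold. At adjusted p alone 4 of 4 were lower, beside 30.5% of all genes.

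Of the assembly factors, Ruvbl2 and Ruvbl1, the helicase pair of snoRNP assembly, were at 19.0 and 10.3 TPM in replicate 2, against 32.2 and 16.5 TPM in replicate 1. Shq1 and Naf1, which hold dyskerin before GAR1 joins, were at 1.47 and 0.81 TPM in replicate 2, against 2.36 and 1.32 TPM in replicate 1. All 4 were lower in replicate 2 at adjusted p alone, where 30.5% of all genes were lower and 31.5% higher. Of the Cajal body partners, 3 of 4 were lower, with Nolc1 at 6.74 TPM in replicate 2 and 15.3 TPM in replicate 1, while Wrap53, which carries scaRNAs to Cajal bodies, had a log2 ratio of 0.00. The trimming enzymes Parn, Tent4b, Exosc10 and Toe1 ranged over 3.53 to 5.68 TPM in replicate 2 and 4.01 to 7.13 TPM in replicate 1, with 1 higher and 1 lower at adjusted p alone.

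The C/D core genes Fbl, Nop56, Nop58 and Snu13 had a median level of 23.8 TPM for replicate 2 and 37.3 TPM for replicate 1, and 4 of 4 were lower in replicate 2 at adjusted p alone, beside 30.5% of all genes. The 12 standalone pseudouridine synthases, which work without a guide RNA, were all at 1 TPM or more, with a median level of 2.43 TPM for replicate 2 and 3.25 TPM for replicate 1, and 8 were lower and 1 higher at adjusted p alone, beside 30.5% and 31.5% of all genes. Of the telomerase genes, Terc, whose RNA has an H/ACA domain bound by the same proteins, was at 55.4 TPM in replicate 2 and 61.3 TPM in replicate 1, with 5817 counts in replicate 2 and 3978 in replicate 1. Tert, the catalytic protein, was at 0.34 TPM in replicate 2 and 0.50 TPM in replicate 1. On scaled counts no gene of these lists passed 2-fold in either direction. On TPM, where all of them were lower in replicate 2, Nolc1, Trub1, Gar1, Pus1 and Nop56 differed by more than 2-fold.

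**Figure D5:**
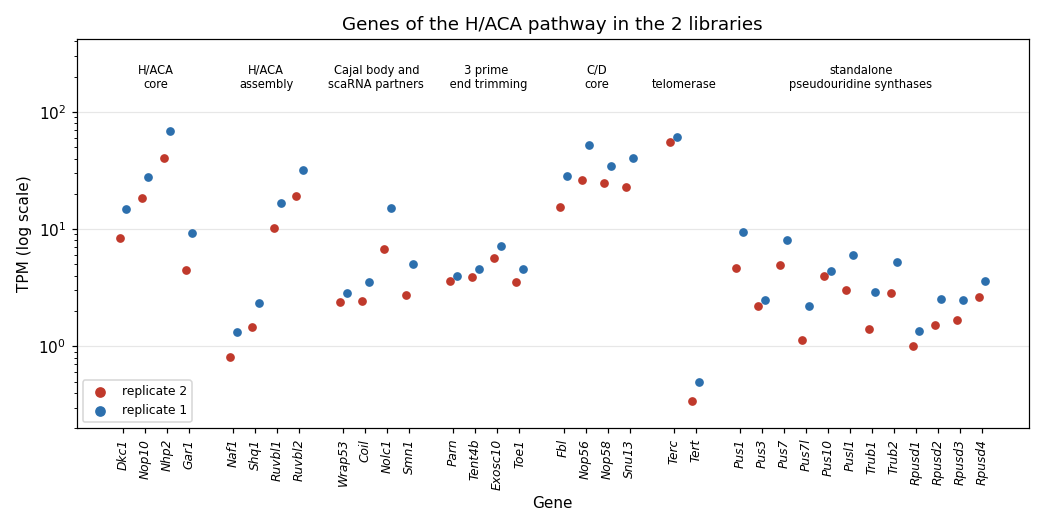
TPM on a log axis of the genes for H/ACA core proteins, assembly factors, Cajal body partners, 3′ trimming enzymes, C/D core proteins, telomerase and standalone pseudouridine synthases, with replicate 2 in red and replicate 1 in blue. Each gene is lower in replicate 2 on this scale, though Parn, Pus10, Pus3, Terc, Tent4b and Wrap53 have TMM-scaled count ratios above 0 (the last pair below 0 when scaled by total counts), and Nhp2 leads the core proteins at 40.4 TPM in replicate 2 and 68.2 TPM in replicate 1.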

How the data were processed

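Total RNA of DMSO-treated MEL cells was quantified in 2 libraries. The submitters' readme names mm10 and GENCODE M4 (aligner and counter: not given in the sources used here). The authors' gene tables hold estimated counts, TPM, FPKM, effective lengths and posterior means, per the file headers. The authors' transcript tables also hold each transcript as a percent of its gene, per the file headers. Names and sequences came from GENCODE M21 on GRCm38, the same assembly. The members and lists were chosen with earlier results of these data known.

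CPM and RPKM were computed from the authors' estimated counts, with 90856320 counts in replicate 2 and 65109488 in replicate 1. TMM factors came from edgeR 4.0.16 (R 4.3.3) on rounded counts, over genes with 10 or more counts in either library. A model with the mean only gave a biological coefficient of variation of 0.216 between the libraries, and no degree of freedom remains to test 1 library against the other with it. Each gene was therefore given an exact two-sided binomial test (scipy 1.17.1) with Benjamini-Hochberg adjustment. The test was tried on simulated libraries with known scaling and counting error alone. That simulation does not show how the test behaves with the spread seen between these libraries. The test compares these libraries, not conditions, and covers counting error only. A chi-square statistic of 369 per degree of freedom shows that the libraries are not 1 library deposited under both names. Structures came from RNAfold 2.7.2. Named genes were the lists, the 15 members highest by RPKM, the 5 largest ratios each way with 100 or more counts, scaRNAs with 10 or more counts, and members with short effective lengths. DESeq2 1.42.0 size factors were an alternative.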

Additional observations from a re-analysis of the deposited data

How the results depend on the processing

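The share of counts was 0.190% without the U17 pair, 1.02% without the long Snora43 row and 1.35% over rows other than 7SL, 7SK and rRNA genes, and 1.040% to 1.043% in single libraries. The share of TPM was 4.74% without rows of an effective length under 10, and 7.56% to 9.42% in single libraries. With no fold threshold 10 members were higher and 14 lower, and at 1.5-fold 2 were lower. The median log2 ratio turned positive with a count minimum of 1 (0.037), on TPM (0.10) and for members of 178 to 414 bases (0.18). The cause was not tested. The last pair of length classes and the ribosomal host subset were chosen after seeing the data, as were the share without the long row and the share without 7SL, 7SK and rRNA. The median log2 ratio of member to host was -1.93, and -1.50 with the shortest host, -0.34 with 100 or more counts, -3.85 for ribosomal protein hosts alone, and 4.53 on TPM, a scale on which member rows have effective lengths near 1; single libraries gave -2.13 to -1.73. The core protein median was 69.2 in FPKM, a different unit, and 13.5 to 21.2 TPM in single libraries. Besides these shifts, 41 recomputed values stayed within 1.5 times or within the spread. The single-library values are among them and could not have fallen outside it, since the spread comes from the same 2 libraries. No paired analysis was possible because the libraries form 1 group. Depth limits members under 10 counts, and effective lengths limit TPM of RNAs under 150 bases.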

Other observations

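Rows outside the symbol rule hold further RNAs with the H/ACA ending. M21 names 1475 other snoRNA or scaRNA rows, and 626 of them carry ACA 2 to 4 bases from the 3′ end. These rows were looked at after the members' values were seen. Of the 626, 60 had 10 or more counts in both libraries, 54 of them under 150 bases. Together the rows with ACA took 0.244% of counts in replicate 2 and 0.231% in replicate 1, beside 1.02% in replicate 2 and 1.01% in replicate 1 for the named members without the long Snora43 row. The highest were Gm26448, of 203 bases, with 100099 counts in replicate 2 and 53434 in replicate 1, and Gm26083, of 193 bases, with 67012 in replicate 2 and 39618 in replicate 1. That pair held 75.4% of the counts of these rows in replicate 2 and 61.8% in replicate 1, and by count either would stand next after Snora73b and Snora73a. Gm26448 lies on chromosome 9 from 120129351 to 120129553 (GRCm38), beside Snora62, which had 20 counts in replicate 2 and 19 in replicate 1. Gm22988, of 144 bases, had 9214 counts in replicate 2 and 13136 in replicate 1. The annotation gives these rows no named RNA family, so they were not joined to the set.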
